A study of Mus musculus with 9 samples.

Results

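The 10 genes described here encode transcription factors of the dendritic cell lineage: Id2, Zeb2, Tcf4, Nfil3, Zbtb46, Klf4, Spi1, Spib, Bcl6 and Cebpa. They were picked by name, and for each the array cluster carrying that gene symbol was taken. Each of the 10 genes has 1 such cluster among the 19938 genes on the array, and all 10 were among the 10728 genes bright enough to be tested. The study asked which genes the transcription factors BATF and BATF3 control in conventional dendritic cells (cDC) of the mouse spleen. RNA was measured on 9 Affymetrix arrays of cells sorted from the spleens of 129SvEv/Tac mice. Resting and activated cDC2 from Batf-/- Batf3-/- mice (the double knockout, DKO) gave 2 arrays each, resting and activated cDC2 from wild-type (WT) mice gave 2 arrays each, and resting WT cDC1 gave 1 array. For activation, 1 h with IFN-gamma (100 ng/ml) was followed by 3 h with LPS of E. coli (1 µg/ml). The labels give no age or sex, name no Cre or transgene, and do not say whether resting cells spent the same time in culture. Nor do they state whether replicate arrays stand for different mice, and the p-values therefore measure the spread of these samples alone, possibly a technical one.

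These factors are known to form a circuit that sets the identity of dendritic cells. TCF4, also called E2-2, is an E protein that maintains plasmacytoid dendritic cells, and ID2, which lacks a DNA-binding domain, blocks E proteins and favours conventional dendritic cells. ZEB2 is a repressor needed for plasmacytoid cells and cDC2 and acts against Id2, while NFIL3 is a repressor needed for cDC1 that acts against Zeb2. PU.1 (encoded by Spi1) and its relative SPIB are ETS factors, C/EBP-alpha (Cebpa) is a myeloid bZIP factor, ZBTB46 marks conventional dendritic cells, KLF4 is needed for a cDC2 subset, and BCL6 is a repressor with a BTB domain. BATF and BATF3 bind AP-1 sites and composite AP-1 and IRF sites.

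Promoter sequence was available for 8 of the 10 genes in RefSeq (mouse assembly GRCm38.p6), as the 250 bases before each annotated start. Motifs were searched on both strands by their letters. The AP-1 motif TGANTCA lay in 6.75% of 32851 promoters of that length, the STAT motif TTCNNNGAA in 7.02%, the PU.1 motif GAGGAA in 23.3% and the C/EBP motif TTGCNNAA in 9.56%. The windows of Zeb2, Bcl6 and Spib are shown because they hold the letters of an AP-1 site, the class that BATF and BATF3 bind, of a STAT site, the class used in IFN-gamma signalling, and of a C/EBP site. Capitals mark matches to these 4 motifs. The E box CANNTG, the class that TCF4 binds, lay in 66.2% of promoters and is left in lower case, including 2 matches in the Spib window. The Zeb2 window is 1 of 4 annotated starts (minus strand, chr2:45110278-45110527), the Bcl6 window 1 of 2 (minus strand, chr16:23981284-23981533), and Spib lies on the minus strand at chr7:44532072-44532321.
Zeb2: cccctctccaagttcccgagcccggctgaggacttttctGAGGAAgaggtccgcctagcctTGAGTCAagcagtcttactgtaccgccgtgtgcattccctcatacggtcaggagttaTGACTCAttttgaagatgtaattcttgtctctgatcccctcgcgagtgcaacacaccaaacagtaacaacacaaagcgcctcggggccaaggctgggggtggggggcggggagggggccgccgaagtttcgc
Bcl6: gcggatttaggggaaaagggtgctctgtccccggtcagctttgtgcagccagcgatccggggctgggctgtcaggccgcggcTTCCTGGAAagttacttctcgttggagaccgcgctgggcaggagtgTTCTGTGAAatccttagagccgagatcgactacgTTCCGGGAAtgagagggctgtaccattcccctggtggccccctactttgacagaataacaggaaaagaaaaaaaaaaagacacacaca
Spib: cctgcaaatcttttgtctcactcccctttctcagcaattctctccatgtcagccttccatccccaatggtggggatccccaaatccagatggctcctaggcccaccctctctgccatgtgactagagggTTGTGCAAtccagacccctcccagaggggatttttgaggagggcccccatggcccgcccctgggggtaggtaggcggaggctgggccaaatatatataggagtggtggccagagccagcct
The 2 AP-1 matches of Zeb2 start 189 and 132 bases before the gene's start and the PU.1 match 211 bases before it. The 3 STAT matches of Bcl6 start 168, 122 and 88 bases before its start, and the C/EBP match of Spib 121 bases before. The only other AP-1 match was in the window of Zbtb46, 61 bases before its start. The IRF motif GAAANNGAA (7.13% of promoters) and the NFIL3 motif TTANNTAA (5.43%) were in none of the windows of the 8 genes, which says only that these letters are not there. A match describes these letters and is not evidence of binding.

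All values are log2 intensity, in which a difference of 1 is a 2-fold difference, and the levels of different genes are not compared because each has its own probes. The number of arrays limits the precision. Array medians lay between 53.4 and 55.6 on the linear scale, and replicate arrays correlated across genes at r = 0.969 to 0.980. The deleted genes were lower on every DKO array than on every WT array. Batf read 5.31 to 5.44 on the 4 DKO arrays and 6.74 to 9.07 on the 4 WT cDC2 arrays, and Batf3 read 6.43 to 7.17 on the DKO arrays and 7.58 to 9.92 on the WT cDC2 arrays. Where their probes lie relative to the deleted parts is not given in the sources used here. Neither gene passed the adjusted threshold in any DKO against WT comparison (lowest adjusted p 0.126 for Batf and 0.148 for Batf3, limma). That fit does not use the replicate number. Of the 10 cDC1 markers, 10 were above the brightness threshold of 5.94 in cDC1 and 4 to 6 in each cDC2 group, among them Cadm1, Wdfy4, Irf8 and Batf3 on all 9 arrays. Their summed linear intensity was 5608 in cDC1, 4325 to 6150 in activated DKO and 5607 to 6076 in activated WT cDC2. At rest it was 1427 to 1543 in DKO and 1739 to 2061 in WT cDC2. The brightest marker on every activated array was Irf8, at 12.27 and 11.67 (DKO) or 12.06 and 11.725 (WT), whereas cDC1 read 9.94. The mean log2 level of the list, less ruled by 1 bright gene, was highest in cDC1 at 8.51. Activated cells lay lower, DKO at 6.60 to 6.75 and WT at 7.11 to 7.16. Xcr1, Clec9a and Gcsam read 9.33, 8.67 and 8.37 in cDC1 and lay below the threshold on all 8 cDC2 arrays. Of the 10 cDC2 markers, 5 or 6 were above the threshold in each cDC2 group and 3 in cDC1. Sirpa and Irf4 were above the threshold on all 8 cDC2 arrays, whereas Clec4a4, Cd209a and Clec10a were below it on every array and Itgam on 8 of 9. In sorted bulk samples, fewer cells of a type and less RNA per cell cannot be told apart.

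**Figure D1:**
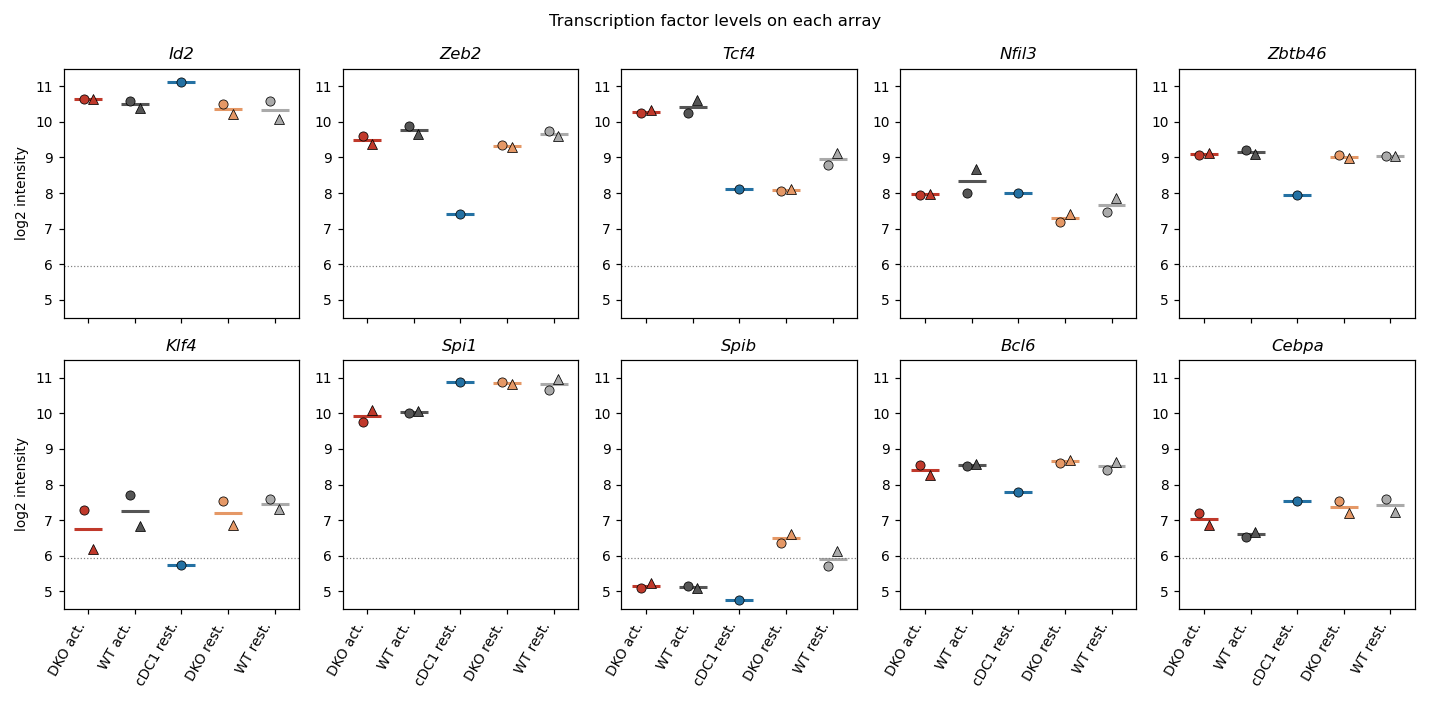
Level of each of the 10 transcription factor genes on the 9 arrays (log2 intensity, 1 panel per gene). Circles are replicate 1, triangles replicate 2, bars the group mean and the dotted line the brightness threshold of 5.94; Tcf4 stood between 10.24 and 10.61 on the 4 activated arrays and between 8.06 and 9.12 on the 5 resting ones.

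The genes differed widely in how far they varied. Tcf4 spanned 2.55 log2 units over the 9 arrays, more than 96.0% of all genes tested, and Zeb2 spanned 2.47. Among the 8 cDC2 arrays, however, the Zeb2 range was 0.57 and that of Zbtb46 was 0.23, because the cDC1 array alone lay low for both. Bcl6 had the smallest range over the 9 arrays of these 10 genes, 0.90. Spib lay below the brightness threshold on 6 of 9 arrays and was tested only through its mean in resting DKO cDC2, so a group difference was built into its inclusion. Klf4 lay below the threshold on 1 array, cDC1.

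The first comparison asks what the loss of BATF and BATF3 does to these factors in resting cDC2. None of the 10 genes passed an adjusted p of 0.05 (limma, Benjamini-Hochberg adjustment over all genes tested), and 3 of 10 had an unadjusted p below 0.05, beside 6.59% of all genes. Of all genes tested, 0.0186% passed, so the comparison made almost no calls for any gene. The arrays of DKO and WT did not overlap for 4 of the 10, against 31.1% of all genes. Of these, Zeb2, Tcf4 and Nfil3 were on the low side in DKO and Spib was on the high side. Spib is also among the 3 genes with an unadjusted p below 0.05. Its inclusion through resting DKO cDC2 alone favoured the high side.

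Tcf4, the plasmacytoid E protein, read 8.06 and 8.10 in resting DKO cDC2 and 8.79 and 9.12 in resting WT cDC2. The 2 DKO arrays lay close together and below both WT arrays. The difference was -0.88 ± 0.16 (standard error, SE; 95% interval -1.27 to -0.49), with an adjusted p of 0.348 (limma). With the replicate number as a block in the fit, Tcf4 passed (adjusted p = 0.0316), the 1 call among the 10 genes, beside 0.736% of all genes called in that fit. The single cDC1 array, at 8.13, lay just above the resting DKO cDC2 arrays, a comparison that was not tested.

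Several marker lists had lower means on both resting DKO arrays than on both resting WT arrays. One was the list of plasmacytoid dendritic cell markers, with 8 of its 10 genes on the array. Their mean was 7.11 to 7.16 in resting DKO cells and 7.55 to 7.94 in resting WT cDC2. In each group 6 of the 8 were above the brightness threshold. Their summed linear intensity was 1684 to 3499 in resting DKO cells and 2387 to 6860 in resting WT cDC2. The brightest of them on each of these arrays was Bst2. It read 9.40 and 11.44 in DKO and 9.83 and 12.36 in WT, higher on replicate 2 in both genotypes. Of the defining markers, Siglech read 5.66 and 5.81 in resting DKO against 5.97 and 5.81 in resting WT cDC2, at or near the brightness threshold, and Ly6d was below it on all 9 arrays. Ccr9, a homing receptor of plasmacytoid cells, read 8.14 and 7.40 in resting DKO cells and 9.06 and 8.51 in resting WT cDC2. Tlr7, a sensor of single-stranded RNA, read 7.74 and 7.26 in resting DKO cells and 8.42 and 9.07 in resting WT cDC2. Some lists of other cell types moved likewise. The mean of 8 monocyte markers was 6.29 to 6.30 in resting DKO and 6.59 to 6.82 in resting WT cDC2. That of 10 macrophage markers was 6.25 to 6.41 in DKO and 6.59 to 6.61 in WT. That of 10 cDC1 markers, which include the deleted gene Batf3, was 6.20 to 6.28 in DKO and 6.46 to 6.54 in WT. The means of the cDC2, pan dendritic cell, B cell, T cell, neutrophil and erythroid lists overlapped between the genotypes at rest. That of the NK cell list was higher in DKO, at 4.414 to 4.492 against 4.325 to 4.409 in WT. The lower mean was therefore not particular to plasmacytoid markers. The part of these markers in the Tcf4 difference was not tested.

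The repressor genes of the circuit differed by less. Zeb2 read 9.34 and 9.31 in resting DKO cells and 9.75 and 9.60 in resting WT cDC2, a difference of -0.35 ± 0.13 (adjusted p = 0.69, limma). Nfil3 read 7.19 and 7.41 in resting DKO cells and 7.46 and 7.86 in resting WT cDC2, a difference of -0.36 ± 0.24 (adjusted p = 0.966, limma). For Nfil3 the gap between the higher DKO array and the lower WT array was smaller than the gap between the replicates of either genotype. Id2 read 10.50 and 10.23 in resting DKO cells and 10.58 and 10.10 in resting WT cDC2, with the DKO arrays inside the WT range.

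Spib ran the other way, at 6.36 and 6.61 in resting DKO cells and 5.72 and 6.12 in resting WT cDC2. Both DKO arrays and 1 WT array lay above the brightness threshold. The difference was 0.56 ± 0.16 (adjusted p = 0.598, limma), in the direction that the inclusion of Spib through resting DKO cells favoured. SPIB is also a B cell factor, and none of the 7 B cell markers measured was above the threshold in any group. The remaining 6 genes (Id2, Zbtb46, Klf4, Spi1, Bcl6 and Cebpa) differed by -0.24 to 0.13, and the widest of their 95% intervals, that of Klf4, ran from -1.34 to 0.85. The median difference of the 10 genes was -0.05, beside 0.01 for all genes tested.

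In activated cDC2 the same question gave no call among the 10 genes and 0 genes of the 10 with an unadjusted p below 0.05 (limma), beside 5.95% of all genes, again with 0.0186% of all genes called. Tcf4 read 10.24 and 10.32 in activated DKO and 10.25 and 10.61 in activated WT cDC2, so the genotypes overlapped (difference -0.15 ± 0.16). Zeb2 read 9.59 and 9.37 in activated DKO and 9.88 and 9.66 in activated WT cDC2, a difference of -0.29 ± 0.13 (adjusted p = 0.861, limma). Nfil3 read 7.94 and 7.98 in activated DKO and 8.01 and 8.67 in activated WT cDC2, a difference of -0.38 ± 0.24 that was -0.05 without activated WT replicate 2. Cebpa read 7.19 and 6.87 in activated DKO and 6.53 and 6.67 in activated WT cDC2, a difference of 0.43 ± 0.19 (adjusted p = 0.861, limma). The arrays did not overlap for Zeb2, Nfil3, Cebpa and Id2, which is 4 of 10 beside 29.9% of all genes. Id2, Zbtb46, Klf4, Spi1, Spib and Bcl6 differed by -0.53 to 0.14, with Klf4 the lowest and Id2 the highest. The Klf4 difference (-0.53 ± 0.45) was the largest of the 10 in size, and its arrays overlapped between genotypes. The direction for Tcf4 rested on 1 array: without activated WT replicate 2 the difference was 0.03.

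Averaged over both states, DKO minus WT gave no call among the 10 genes, beside 0.0186% of all genes called. An unadjusted p below 0.05 (limma) was found for 3 of 10, beside 10.8% of all genes. These 3 include Spib, whose inclusion through resting DKO cDC2 alone favoured a positive difference. With the replicate number as a block, 2 of the 10 passed, Tcf4 (adjusted p = 0.0210) and Zeb2 (0.0369), beside 5.58% of all genes called in that fit. Tcf4 averaged 9.18 in DKO and 9.69 in WT cDC2 (difference -0.51 ± 0.11, adjusted p = 0.203). Zeb2 averaged 9.40 in DKO and 9.72 in WT cDC2 (difference -0.32 ± 0.09, adjusted p = 0.275). Zeb2 was the 1 gene of the 10 whose 4 DKO arrays all lay below its 4 WT arrays, a separation found in either direction for 2.57% of all genes. It was a narrow one, since activated DKO replicate 1 read 9.59 and resting WT replicate 2 read 9.60. Nfil3 differed by -0.37 ± 0.17 (adjusted p = 0.506, limma) and Spib by 0.30 ± 0.11 (adjusted p = 0.414, limma). The other 6 genes differed by -0.39 to 0.19, with Klf4 the lowest (-0.39 ± 0.32).

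**Figure D2:**
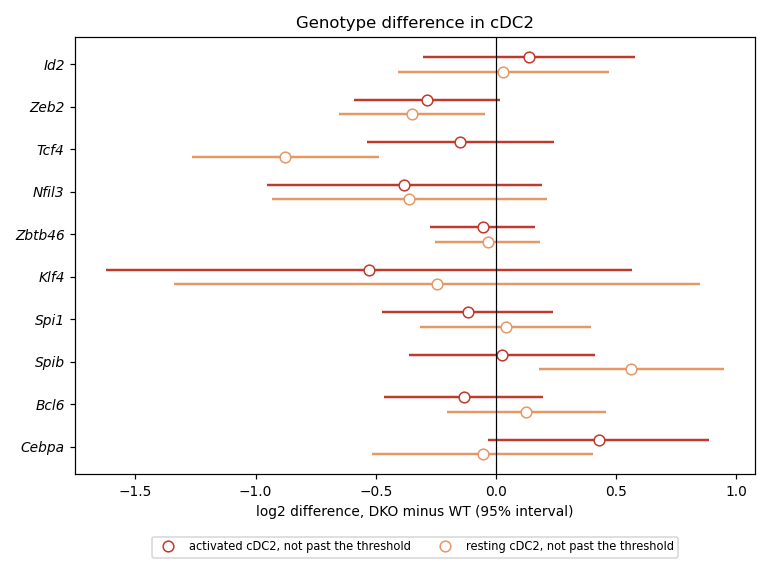
Difference between DKO and WT cDC2 for each gene (log2, DKO minus WT), with 95% intervals, in activated cells (red, upper of each pair) and resting cells (orange, lower). Open points did not pass the adjusted threshold, which none of the 10 genes did in the fit without a block; Tcf4 lay at -0.15 in activated and -0.88 in resting cells.

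Activation with IFN-gamma and LPS gave calls in both genotypes. In DKO cDC2, 1 of the 10 genes rose and 2 fell, beside 13.7% of all genes called. In WT cDC2, 1 rose and 3 fell, beside 10.5% of all genes. Tcf4 rose and Spi1 and Spib fell in both genotypes, and Cebpa fell in WT cells. The count for DKO includes Spib, whose inclusion favoured a fall there. The median over the 10 genes was -0.08 in DKO and 0.05 in WT cDC2, beside -0.09 and -0.07 for all genes. Each activation comparison uses resting arrays that also enter the resting comparisons between genotypes, and the resting WT arrays also enter the comparison with cDC1, so these are not independent results.

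Tcf4 was the gene that rose. In DKO cDC2 it read 10.24 and 10.32 in activated cells and 8.06 and 8.10 in resting cells, an increase of 2.20 ± 0.16 or 4.61-fold (adjusted p = 0.0022, limma). In WT cDC2 it read 10.25 and 10.61 in activated cells and 8.79 and 9.12 in resting cells, an increase of 1.47 ± 0.16 or 2.78-fold (adjusted p = 0.0082, limma). Every activated array lay more than 1 log2 unit above every resting one. The DKO call remained whichever cDC2 array was left out, and the WT call was lost without activated WT replicate 2 (1.29, adjusted p = 0.0546). The plasmacytoid marker mean was 7.42 to 7.57 in activated and 7.11 to 7.16 in resting DKO cDC2. It was 7.76 on both activated and 7.55 to 7.94 on the resting WT cDC2 arrays. The list holds genes that moved in opposite directions. In WT cDC2, Lag3 read 9.024 and 9.252 in activated and 7.278 and 8.027 in resting cells. Ccr9 read 7.274 and 6.117 in activated and 9.063 and 8.508 in resting cells. The part of these markers in the Tcf4 rise was not tested.

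Spi1, which encodes the ETS factor PU.1, fell. It read 9.76 and 10.08 in activated and 10.89 and 10.82 in resting DKO cDC2, a change of -0.93 ± 0.15 (adjusted p = 0.0136, limma). It read 9.999 and 10.08 in activated and 10.67 and 10.96 in resting WT cDC2, a change of -0.78 ± 0.15 (adjusted p = 0.0309, limma). The 4 activated arrays all lay below the 4 resting ones. The DKO call was lost without resting DKO replicate 1, resting DKO replicate 2 or activated DKO replicate 1 (adjusted p = 0.0704, 0.0810 and 0.0688), and the WT call without any of the 4 WT or 2 resting DKO arrays (adjusted p between 0.0611 and 0.121).

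Its relative Spib fell as well. It read 5.08 and 5.22 in activated and 6.36 and 6.61 in resting DKO cDC2, a change of -1.33 ± 0.16 (adjusted p = 0.0069, limma). It read 5.14 and 5.10 in activated and 5.72 and 6.12 in resting WT cDC2, a change of -0.80 ± 0.16 (adjusted p = 0.0343, limma). All 4 activated arrays were below the brightness threshold and close to each other. Spib was tested only through its mean in resting DKO cDC2, so a fall from that group was favoured by its inclusion. The DKO call was lost without resting DKO replicate 2 (adjusted p = 0.0549) or activated DKO replicate 1 (0.0524), and the WT call when any 1 of the 8 cDC2 arrays was left out (adjusted p between 0.0561 and 0.146).

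Cebpa, the myeloid bZIP gene, read 6.53 and 6.67 in activated and 7.61 and 7.23 in resting WT cDC2, and fell by 0.82 ± 0.19 (adjusted p = 0.0464, limma). In DKO cDC2 it read 7.19 and 6.87 in activated and 7.54 and 7.19 in resting cells, a difference of -0.34 ± 0.19 (adjusted p = 0.283, limma). There the activated array of replicate 1 and the resting array of replicate 2 were level. The WT call was close to the threshold: it was lost when any 1 of the 8 cDC2 arrays was left out (adjusted p between 0.0591 and 0.188), with quantile normalization (0.0714) and with no filter on brightness (0.0674).

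Nfil3 did not pass in the fit without a block. It read 7.94 and 7.98 in activated and 7.19 and 7.41 in resting DKO cDC2 (0.66 ± 0.24, adjusted p = 0.115, limma), and 8.01 and 8.67 in activated and 7.46 and 7.86 in resting WT cDC2 (0.68 ± 0.24, adjusted p = 0.115). The activated arrays lay above the resting ones in each genotype. With the replicate number as a block Nfil3 passed in DKO (adjusted p = 0.0146) and WT cDC2 (0.0142), which made 4 and 5 of the 10 genes called, beside 38% and 35.3% of all genes. The other 5 genes, Id2, Zeb2, Zbtb46, Klf4 and Bcl6, differed by -0.46 to 0.27 in DKO and by -0.18 to 0.17 in WT cDC2. Zbtb46, the marker of conventional dendritic cells, stayed within 8.98 to 9.21 on all 8 cDC2 arrays. Klf4 was the least well measured, with 95% intervals of -1.55 to 0.63 in DKO and -1.27 to 0.92 in WT cDC2. Its SE was 0.45 in this fit and 0.18 with the replicate number as a block.

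**Figure D3:**
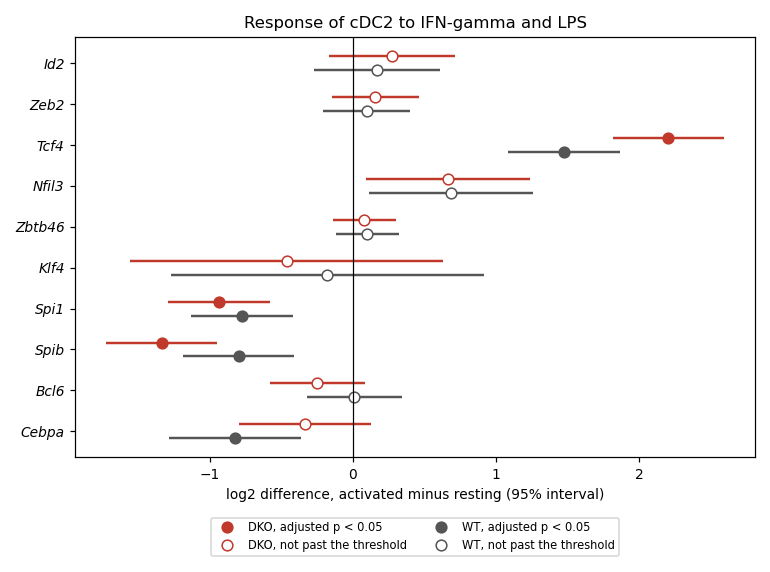
Response of cDC2 to IFN-gamma and LPS for each gene (log2, activated minus resting) with 95% intervals, in DKO (red, upper of each pair) and WT cells (grey, lower). Filled points passed an adjusted p of 0.05; Tcf4 lay at 2.20 in DKO and 1.47 in WT cells, and Spi1 and Spib lay below 0 in both.

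Whether the response itself differed between genotypes was tested as an interaction, DKO response minus WT response. No gene passed in the whole table (0% called by limma; 121 had an unadjusted p below 0.05), and so none of the 10. Tcf4 had the largest value of the 10 genes, 0.73 ± 0.23 (95% interval 0.18 to 1.28, adjusted p = 1). Spib had -0.54 ± 0.23, and its inclusion through resting DKO cDC2 alone favoured a negative value. Cebpa had 0.48 ± 0.27, so the activation call for Cebpa in WT alone does not show a difference between genotypes. The other 7 genes lay between -0.28 and 0.11.

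The last comparison sets resting WT cDC1 against resting WT cDC2 and asks which factors mark the subset. Of the 10 genes, 5 were lower in cDC1 and none was higher past the threshold, beside 13.6% of all genes called. These were Zeb2, Zbtb46, Spib, Bcl6 and Tcf4. The median over the 10 genes was -0.78, beside -0.01 for all genes. The fit gives the lone cDC1 array the spread found among cDC2 replicates, and any feature of that array cannot be told apart from the subset.

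Zeb2 had the greatest difference of the 10, with 7.41 in cDC1 and 9.75 and 9.60 in cDC2. It was 4.79-fold lower in cDC1 (-2.26 ± 0.15, adjusted p = 0.0009, limma). Zbtb46 read 7.93 in cDC1 and 9.05 on both cDC2 arrays, and was 2.17-fold lower (-1.12 ± 0.11, adjusted p = 0.0030). Spib read 4.76 in cDC1 and 5.72 and 6.12 in cDC2 (-1.16 ± 0.20, adjusted p = 0.0145), with only the higher cDC2 array above the brightness threshold. These 3 calls remained whichever cDC2 array was left out.

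Tcf4 read 8.13 in cDC1 and 8.79 and 9.12 in cDC2 (-0.83 ± 0.20, adjusted p = 0.0413, limma). Bcl6 read 7.80 in cDC1 and 8.42 and 8.64 in cDC2 (-0.73 ± 0.17, adjusted p = 0.0372, limma). Both were below each cDC2 array. The Tcf4 call was lost without any of the 4 DKO arrays or resting WT replicate 2 (adjusted p between 0.0748 and 0.113) and with no brightness filter (0.0542). The Bcl6 call was lost without any of the 2 resting DKO or 4 WT cDC2 arrays (adjusted p between 0.0612 and 0.111).

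Id2, which ran opposite to Zeb2, read 11.12 in cDC1 and 10.58 and 10.10 in cDC2 (0.79 ± 0.22, adjusted p = 0.0673, limma). It passed when resting WT replicate 1 was left out (1.03, adjusted p = 0.0406). Klf4 read 5.72 in cDC1, below the brightness threshold, and 7.58 and 7.30 in cDC2, a difference that did not pass (-1.72 ± 0.55, adjusted p = 0.0939, limma). Its SE was the largest of the 10. Nfil3 read 7.998 in cDC1 and 7.46 and 7.86 in cDC2 (0.34 ± 0.29, adjusted p = 0.503). Spi1 read 10.88 in cDC1 and 10.67 and 10.96 in cDC2 (0.06 ± 0.18, 95% interval -0.38 to 0.50). Cebpa read 7.54 in cDC1 and 7.61 and 7.23 in cDC2 (0.12 ± 0.23, 95% interval -0.45 to 0.68). For Spi1 and Cebpa the cDC1 array lay between the 2 cDC2 arrays.

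**Figure D4:**
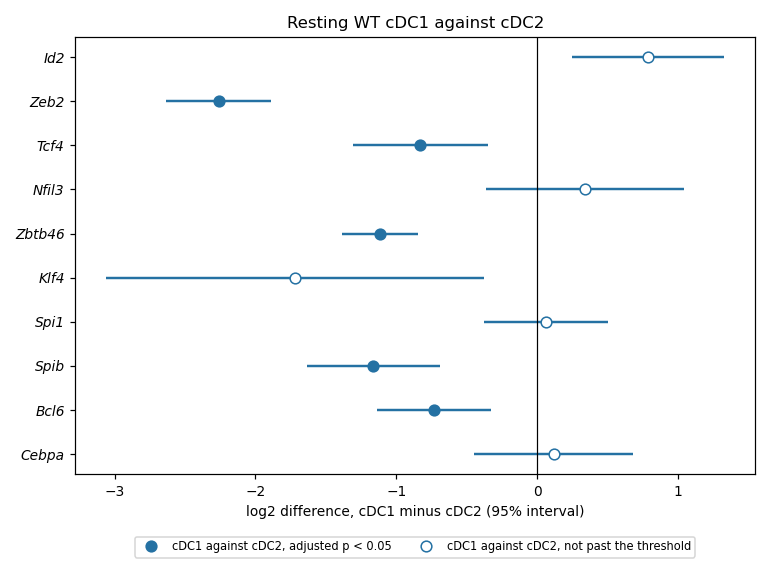
Difference between resting WT cDC1 (1 array) and cDC2 (2 arrays) for each gene (log2, cDC1 minus cDC2) with 95% intervals. Filled points passed an adjusted p of 0.05; Zeb2 lay at -2.26 and Id2, which did not pass, at 0.79.

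Relatives and partners of the 10 factors were read from 6 lists holding 76 genes, of which 73 were on the array and 63 were tested. No listed gene passed in any DKO against WT comparison or in the interaction (limma, fit without a block). Of them, 6 at rest, 3 activated, 6 averaged and 1 in the interaction had an unadjusted p below 0.05 (limma). Of all genes, 6.59%, 5.95%, 10.8% and 1.13% did. The counts include the deleted genes, which are on the lists: Batf at rest, both Batf and Batf3 activated and averaged, and Batf3 alone in the interaction. Outside the deleted genes, Ddit3, which encodes the stress-induced C/EBP relative CHOP, had the value -0.62 ± 0.15 for DKO minus WT averaged over both states (adjusted p = 0.221, limma). Zbtb32, a BTB zinc finger gene, had -0.45 ± 0.16 (adjusted p = 0.368). After activation 6 rose and 3 fell in DKO cDC2, and 4 rose and 3 fell in WT cDC2. In cDC1 3 were higher and 8 lower than in cDC2. These are 14.3% of the listed genes tested in DKO, 11.1% in WT and 17.5% in the subset comparison, close to the 13.7%, 10.5% and 13.6% of all genes. The list of C/EBP and PAR bZIP relatives had 0 of 6 tested genes past the threshold in every comparison (limma), with 0 to 3 at an unadjusted p below 0.05.

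Among the activation responses, Irf8, a factor that sustains cDC1, rose by 3.92 ± 0.33 in DKO and 4.04 ± 0.33 in WT cDC2 (adjusted p = 0.0031 and 0.0037, limma). Mycl, a MYC relative used by dendritic cells, rose by 1.80 ± 0.16 in DKO and 1.52 ± 0.16 in WT cDC2 (adjusted p = 0.0040 and 0.0079). Irf4 passed in DKO cDC2 alone (1.19 ± 0.23, adjusted p = 0.0227, limma). In WT cDC2 it read 10.38 and 10.66 in activated and 9.72 and 9.60 in resting cells. Cbfa2t3 passed in WT cDC2 alone (-0.72 ± 0.16, adjusted p = 0.0394, limma). In DKO cDC2 it read 8.88 and 8.92 in activated and 9.68 and 9.31 in resting cells. In the KLF list, 2 of 11 tested genes rose in both genotypes, Klf8 (1.83 in DKO and 1.73 in WT cDC2) and Klf6 (1.18 in DKO and 1.19 in WT cDC2). Klf3 fell in WT cDC2 (-0.40 ± 0.09, adjusted p = 0.0466, limma). In the ETS list of 11 tested genes, Elk4 rose in DKO cDC2 by 0.54 ± 0.11 (adjusted p = 0.0256, limma). In WT cDC2 Elk4 read 8.64 and 8.46 in activated and 8.15 and 8.235 in resting cells, without passing. Elk3 fell in both genotypes, by 1.09 ± 0.16 in DKO and 0.91 ± 0.16 in WT cDC2. Spic, another ETS factor gene, fell by 1.21 ± 0.26 in DKO cDC2 (adjusted p = 0.0302, limma). In WT cDC2 Spic read 7.93 and 7.73 in activated and 8.855 and 8.48 in resting cells, without passing. No listed gene passed in the interaction, so calls in 1 genotype alone do not show a difference between genotypes.

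Among partners of TCF4, the E protein gene Tcf12 fell by 0.43 ± 0.11 in DKO cDC2 (adjusted p = 0.0482, limma) and had a difference of -0.39 ± 0.11 in WT cDC2 (adjusted p = 0.0717). Id3, an inhibitor of E proteins like Id2, had a difference of 1.34 ± 0.36 between cDC1 and cDC2 (adjusted p = 0.0596). In the subset comparison Irf4, a cDC2 factor, was lower in cDC1 (5.13 in cDC1, 9.72 and 9.60 in cDC2; -4.53 ± 0.28, adjusted p = 0.0007), and Irf8 was higher (9.94 in cDC1, 8.06 and 7.65 in cDC2; 2.09 ± 0.41, adjusted p = 0.0229). Of the BTB zinc finger relatives of Zbtb46 and Bcl6, 2 of 8 tested genes were lower in cDC1, Zbtb32 (-3.57 ± 0.28) and Zbtb18 (-1.45 ± 0.12).

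The genes whose pattern most resembled each factor were ranked by Pearson's r over the 9 arrays. These arrays share groups, and with 10728 genes a high r is found for most patterns, so the values are descriptive. Zeb2 was followed most closely by Dock10, at r = 0.996 over 9 arrays and 0.984 over the 8 cDC2 arrays. Tcf4 was followed by Lrch1 (r = 0.994 and 0.995), Nfil3 by Ctrl (0.987 and 0.991), Spi1 by Galt (0.987 and 0.986) and Spib by Car2 (0.979 and 0.978). Klf4 was followed by Arid4b (0.977 and 0.963), Cebpa by Cmtr2 (0.977 and 0.973) and Id2 by Cdv3 (0.940 and 0.937). For Zbtb46 and Bcl6 the likeness was lower within cDC2: Sfswap followed Zbtb46 at 0.996 over 9 and 0.843 over 8 arrays, and Herc4 followed Bcl6 at 0.952 and 0.784.

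Among the 10 genes themselves, Zeb2 and Zbtb46 had r = 0.98 over the 9 arrays and 0.58 over the 8 cDC2 arrays, so their likeness rested in large part on the cDC1 array. Tcf4 and Spib had r = -0.58 over the 9 arrays and -0.95 over the 8 cDC2 arrays, and both were low in cDC1. Tcf4 and Spi1 had -0.90 and -0.89, and Spi1 and Spib 0.62 and 0.93. All of these values share the difference between resting and activated cells.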

How the data were processed

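Per the submitters' processing notes, probes were summarised by RMA in Affymetrix Expression Console; versions and genome build are not given in the sources used here. Biotinylated cDNA was made with the Affymetrix WT Pico kit, per the labels. Each deposited value is a linear-scale intensity, 1 per transcript cluster and array, normalized by the authors across arrays; a difference in total RNA is therefore not visible.

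Of 28853 clusters, 21789 had 1 gene symbol in the platform annotation, 1621 several and 5443 none. Genes with several clusters (999) were read from that of highest mean. The 10728 genes with a group mean above 61.3 (log2 5.94), the median of all values of clusters with 1 symbol, in at least 1 group were tested on log2 values with limma 3.58.1 in R 4.3.3 (lmFit, eBayes, two-sided), in 1 fit of 9 arrays with 5 group means and 4 residual degrees of freedom, and adjusted by Benjamini-Hochberg. This fit has no block. The labels number the replicates without saying what a number shares. The deviations of same-numbered arrays from their group means correlated at 0.454 to 0.695 in all 6 pairs of cDC2 groups. A fit with the number as a block (8 cDC2 arrays) was therefore also made. For the lineage transcription factor genes described at the start, it is given beside each result whose call it changes. Whether it changes calls for the deleted genes or the listed relatives is not given here. The code was tested on simulated data.

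The 10 genes and all lists were chosen with earlier results of these data known. All 10 and the deleted genes are named; which of the 10 have their differences given singly was chosen after their values were seen. From each related list, names come from up to 4 genes with the largest change past the threshold or, where none passed, up to 2 of smallest p, and for likeness from the 2 genes of highest correlation. Alternatives were another normalization, an added constant of 16, no brightness filter, the second cluster per gene, cDC2 arrays alone, the replicate number as a block, and leaving out each array.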

Additional observations from a re-analysis of the deposited data

How the results depend on the processing

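Of 35 differences of single genes, all 35 kept direction and call with 16 added before log2. Quantile normalization kept 33 and turned the Spi1 difference between cDC1 and cDC2 to -0.0243. No brightness filter kept 33. The second cluster per gene could not change a difference, since each of the 10 genes has 1 cluster. Nor could refitting 25 of the differences on cDC2 arrays alone, since the lone cDC1 array adds nothing to the spread. These 2 settings are therefore no check on the 10 genes. Leaving out 1 array, the differences that changed sign ranged from -0.0702 to 0.303 (Cebpa, cDC1), -0.083 to 0.206 (Spi1, cDC1) and -0.329 to 0.0332 (Tcf4, activated genotype). Genes of the 10 past the threshold then numbered 1 to 3 for activation in DKO, 0 to 2 in WT and 3 to 5 for cDC1. All genes past it numbered 217 to 1276, 63 to 696 and 798 to 1155, and for DKO against WT 0 to 6 at rest, 0 to 0 activated and 2 to 4 averaged. These fits have fewer arrays.

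With the replicate number as a block, members past the threshold in DKO against WT were 1 at rest (Tcf4, adjusted p = 0.0316) and 2 on average (Tcf4 0.0210, Zeb2 0.0369). Nfil3 passed after activation in DKO (0.0146) and WT (0.0142), and no other call among the 10 changed. Genes past the threshold numbered 79 at rest, 61 activated and 599 averaged for DKO against WT, beside 2, 2 and 2 without the block, and 4080 and 3791 for activation in DKO and WT, beside 1472 and 1131. No interaction passed (limma, 368 genes at an unadjusted p below 0.05). The number of arrays, 2 per cDC2 group and 1 of cDC1, limits every value.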

Other observations

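Some of the scatter between arrays ran with the replicate number. Klf4 was higher on replicate 1 than on replicate 2 in all 4 cDC2 groups, by 1.11 in activated DKO, 0.86 in activated WT, 0.68 in resting DKO and 0.28 in resting WT cells. Id2 and Zeb2 were also higher on replicate 1 in all 4 groups, and Tcf4 and Nfil3 lower. Of all 10728 genes, 42.9% ran the same way in all 4 groups.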
